A study of Homo sapiens with 8 samples.

Results

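The YAP and TEAD pathway was followed through 10 genes chosen by name: the coactivators YAP1 and WWTR1 (the gene of TAZ), the DNA-binding factor TEAD1, the TEAD cofactors VGLL1 and VGLL3, the regulators LATS2 and AMOTL2, and the targets CCN1, CCN2 and ANKRD1. They were found in the deposited table by matching its RefSeq transcripts to these symbols, which gave 22 transcripts of 10 genes, out of 48175 transcripts in all. RNA was measured in 8 libraries of HMLE cells, human mammary epithelial cells immortalized with telomerase and a viral T antigen. The groups were SOX4-shRNA cells given TGF-β for 16 h, untreated SOX4-shRNA cells, scrambled-shRNA cells given TGF-β for 16 h, and untreated scrambled-shRNA cells, with 2 libraries each. All 4 groups had been transduced with lentivirus and selected with puromycin at 0.5 µg/mL, a single shRNA was directed against SOX4, and the dose of TGF-β is not given in the sources used here. Separate cultures for the 2 libraries of each group are not stated in the labels, so the p-values speak to the spread among these libraries, which could be technical.

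In the Hippo pathway, kinases of the MST and LATS families phosphorylate YAP and TAZ, which holds these coactivators in the cytoplasm. Unphosphorylated YAP and TAZ enter the nucleus, where they bind the TEAD factors and turn on genes of the extracellular matrix, the cytoskeleton and growth. In mammary epithelial cells the pathway reads cell density, shape and matrix stiffness, and YAP and TAZ can form complexes with the SMAD factors that carry the TGF-β signal. The activity of YAP and TAZ is set mainly by phosphorylation, which RNA levels do not show.

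Many values of the deposited table lack their decimal mark (34.1% of its cells), and such a cell can stand for up to 3 values that lie 10-fold apart. The right one was sought from the whole numbers of reads behind the values, weighed with the spread between libraries. This settled 7 of the 10 genes, each with 1 transcript. The summed transcripts of WWTR1 and AMOTL2 were restored less surely, since another reading was also whole in some libraries. YAP1 was not settled.

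The libraries corresponded to a scale of 12.6 M to 16.8 M reads, and the tested genes held medians of 347 to 460.5 whole reads a library. SOX4, the gene targeted by the knockdown, was at 2.12 ± 0.351 FPKM in TGF-β-treated SOX4-shRNA cells against 18.1 ± 0.803 FPKM in TGF-β-treated scrambled-shRNA cells, and at 0.972 ± 0.0683 FPKM in untreated SOX4-shRNA cells against 8.39 ± 0.493 FPKM in untreated scrambled-shRNA cells (SD, n = 2 each). FPKM is a read number corrected for the length of the transcript and the size of the library. TGFBI, a matrix protein induced by TGF-β, served as a check of the treatment and was at 1067 ± 63.1 FPKM with TGF-β against 82.2 ± 0.0131 FPKM without it in SOX4-shRNA cells, and at 1004 ± 6.80 FPKM against 187 ± 11.4 FPKM in scrambled-shRNA cells. The basal keratin KRT5 lay between 2886 and 3945 FPKM, KRT14 between 1446 and 2875 FPKM, CDH1 between 74.1 and 95.4 FPKM and EPCAM between 55.8 and 114 FPKM. Of the markers of other cells with values that could be read, the fibroblast genes LUM and PDGFRA did not exceed 0.105 and 0.103 FPKM, the endothelial gene PECAM1 did not exceed 0.168 FPKM, and CDH5 and the T-cell gene CD3E were listed at 0 in all 8 libraries. In bulk RNA, fewer cells of a type and less RNA per cell cannot be told apart.

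TGF-β was first compared with no treatment, in SOX4-shRNA and in scrambled-shRNA cells. In both, the matrix genes CCN1 and CCN2 rose. In SOX4-shRNA cells the cofactor VGLL1 fell, and in scrambled-shRNA cells ANKRD1 and the cofactor VGLL3 rose. TEAD1, LATS2 and the summed transcripts of WWTR1 and AMOTL2 did not pass the test in either. The test was limma on log2(FPKM + 1) over 5393 genes with 1 transcript, among them 7 of the 10 genes, with calls at a Benjamini-Hochberg adjusted p under 0.05. Log2 differences below are on this scale, where the added 1 FPKM shrinks the changes of genes at low levels.

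CCN2, once named CTGF, encodes a secreted matricellular protein and is a textbook target of YAP and TEAD. Its position is chromosome 6, 132269316 to 132272512, minus strand (hg19, GENCODE 44). CCN2 was at 38.7 and 39.1 FPKM in TGF-β-treated SOX4-shRNA cells and at 21.1 and 22.5 FPKM in untreated SOX4-shRNA cells. In scrambled-shRNA cells CCN2 was at 39.9 and 46.1 FPKM with TGF-β and at 22.4 and 20.8 FPKM without. All 4 TGF-β-treated libraries lay above all 4 untreated ones, which was so for 9.83% of all 5393 genes, and the untreated groups overlapped. The rise was 0.81 ± 0.11 (log2 difference ± SE) in SOX4-shRNA cells (limma adjusted p = 0.00579) and 0.96 ± 0.11 in scrambled-shRNA cells (limma adjusted p = 0.00480), or 1.78 and 1.99 times by the ratio of the means. The rise in scrambled-shRNA cells had a limma adjusted p of 0.0797 when the second TGF-β-treated scrambled-shRNA library was left out. CCN2 shares 278 exon bases with LINC01013, a long non-coding RNA on the opposite strand, and whether the counting used strand is not given in the sources used here.

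CCN1, once named CYR61, is the closest relative of CCN2 and another secreted matricellular target of YAP and TEAD. It is encoded on chromosome 1 (86046444 to 86050272, plus strand). CCN1 was at 180 and 181 FPKM in TGF-β-treated SOX4-shRNA cells and at 121 and 115 FPKM in untreated SOX4-shRNA cells. The scrambled-shRNA cells held 162 and 164 FPKM with TGF-β and at 128 and 119 FPKM without. Here too all 4 TGF-β-treated libraries lay above all 4 untreated ones. The rise was 0.61 ± 0.09 in SOX4-shRNA cells (limma adjusted p = 0.00788) and 0.40 ± 0.09 in scrambled-shRNA cells (limma adjusted p = 0.0431). The second of these lay near the threshold, and it was lost without any 1 of the 4 scrambled-shRNA libraries (limma adjusted p = 0.159 to 0.285), with quantile normalization (0.0638) and with no intensity trend (0.0611). CCN1 had the highest FPKM of the 9 genes with readable values in every library, from 115 to 181 FPKM.

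ANKRD1, a nuclear ankyrin-repeat protein best known from muscle and also induced by YAP and TEAD, is encoded on chromosome 10 (92671853 to 92680844, minus strand). It had the lowest median of the 9 genes with readable values, 1.53 FPKM, with 15 to 62 reads a library. ANKRD1 was at 1.94 and 1.71 FPKM in TGF-β-treated SOX4-shRNA cells and at 0.609 and 1.35 FPKM in untreated SOX4-shRNA cells. In scrambled-shRNA cells ANKRD1 was at 2.35 and 1.89 FPKM with TGF-β and at 0.605 and 0.715 FPKM without. All 4 TGF-β-treated libraries were higher than all 4 untreated ones, but the 2 untreated SOX4-shRNA libraries were far apart. The rise was 0.91 ± 0.20 in scrambled-shRNA cells (limma adjusted p = 0.0331), or 3.21 times by the ratio of the means, while the difference of 0.54 ± 0.20 in SOX4-shRNA cells did not pass (limma adjusted p = 0.143). The rise in scrambled-shRNA cells was lost without any 1 of the 4 scrambled-shRNA libraries (limma adjusted p = 0.124 to 0.242). ANKRD1 passed the filter of 1 FPKM in 2 libraries through 5 libraries, 4 of them treated with TGF-β, so its call is partly built into the filter.

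The promoters of the genes that moved are shown for their TEAD motif, the letters GGAATG, or CATTCC on the other strand. Sequences are from RefSeq on GRCh38.p14 and run over the 250 bases before the annotated start, 5′ to 3′ on the strand of the gene, with the TEAD motif in capitals. A table entry was matched for 8 of the 10 genes, and CCN1 and TEAD1 had none.
CCN2, chr6:131951373-131951622, minus strand: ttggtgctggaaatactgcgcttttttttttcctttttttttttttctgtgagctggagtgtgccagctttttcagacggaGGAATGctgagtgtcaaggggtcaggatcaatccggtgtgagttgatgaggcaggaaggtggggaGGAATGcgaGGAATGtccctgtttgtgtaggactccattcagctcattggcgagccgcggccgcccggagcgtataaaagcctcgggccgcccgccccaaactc
ANKRD1, chr10:90921088-90921337, minus strand: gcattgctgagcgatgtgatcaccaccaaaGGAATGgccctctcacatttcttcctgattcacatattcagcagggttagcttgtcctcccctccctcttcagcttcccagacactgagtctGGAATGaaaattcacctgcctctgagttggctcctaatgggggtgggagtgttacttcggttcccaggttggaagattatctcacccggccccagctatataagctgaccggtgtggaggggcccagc
VGLL1, chrX:136531965-136532214, plus strand: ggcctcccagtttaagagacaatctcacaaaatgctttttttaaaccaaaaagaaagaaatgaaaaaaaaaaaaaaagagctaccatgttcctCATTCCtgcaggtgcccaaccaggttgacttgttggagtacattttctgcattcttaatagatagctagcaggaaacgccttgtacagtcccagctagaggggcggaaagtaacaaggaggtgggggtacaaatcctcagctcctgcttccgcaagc
VGLL3, chr3:86991150-86991399, minus strand: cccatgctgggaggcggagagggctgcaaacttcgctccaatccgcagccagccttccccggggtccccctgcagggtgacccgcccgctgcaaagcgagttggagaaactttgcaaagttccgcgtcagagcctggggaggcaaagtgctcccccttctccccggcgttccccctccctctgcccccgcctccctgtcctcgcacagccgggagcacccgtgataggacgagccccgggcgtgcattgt

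The window searched ran from 250 bases before to 50 bases after the start. CCN2 held 3 copies of the motif, which begin 169, 104 and 95 bases before the start. ANKRD1 held 2 copies, beginning 220 and 128 bases before the start, and VGLL1 held 1 on the other strand at 157 bases. YAP1, LATS2 and 1 of the 2 windows of AMOTL2 held 1 copy each. VGLL3, which rose in scrambled-shRNA cells, had none in this window. Of 35116 promoter windows in the table, 14% held at least 1 copy, 1.37% at least 2 and 0.128% at least 3. The AP-1 motif TGANTCA, which reads the same on both strands, was found in ANKRD1 alone of the 8 genes and in 7.71% of all windows. The SMAD motif CAGACA, or TGTCTG on the other strand, was found in ANKRD1 and in 1 window each of AMOTL2 and WWTR1, against 16.9% of all windows. No motif overlapped another in these windows. A match of letters is a description and does not show that a factor binds there.

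**Figure D1:**
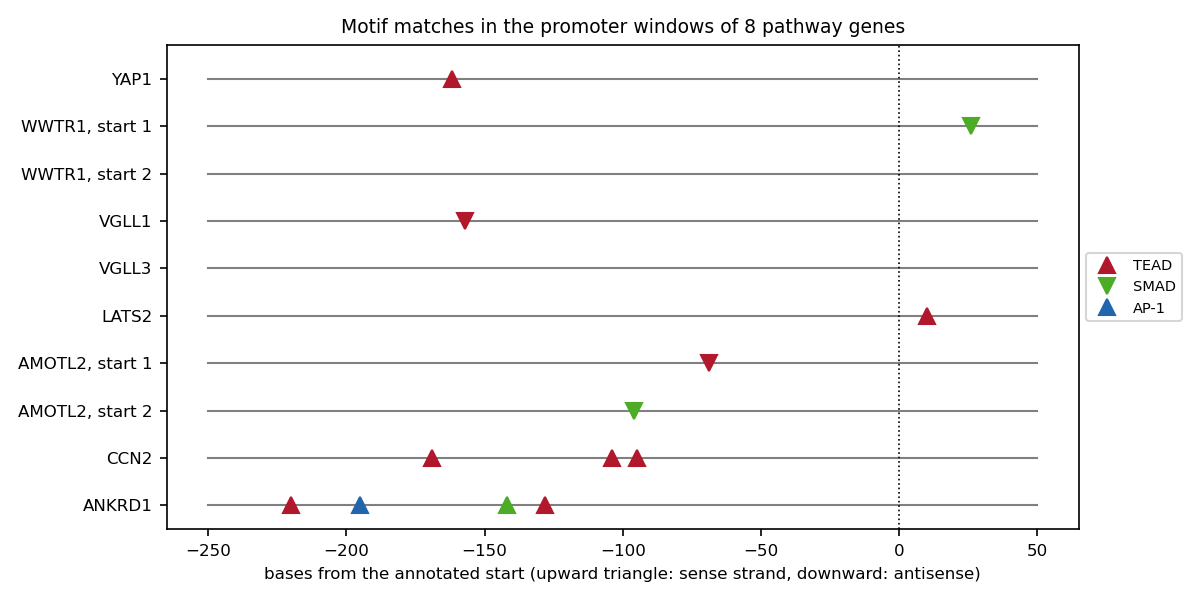
Matches of the TEAD, SMAD and AP-1 motifs (colours) in the promoter windows of 8 genes, by distance in bases of the first matched base from the annotated start (dotted line). Upward triangles are matches on the strand of the gene and downward ones on the other strand. The 3 TEAD motifs of CCN2 lie between 169 and 95 bases before the start, and VGLL3 has no match.

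The TEAD cofactors VGLL1 and VGLL3 are vestigial-like proteins, which bind TEAD factors at a surface that overlaps with that used by YAP and TAZ. VGLL1 is encoded on chromosome X (135614374 to 135638966, plus strand) and was covered by 34 to 99 reads a library. VGLL1 was at 2.40 and 2.995 FPKM in TGF-β-treated SOX4-shRNA cells and at 7.03 and 5.54 FPKM in untreated SOX4-shRNA cells. In scrambled-shRNA cells VGLL1 was at 2.26 and 3.31 FPKM with TGF-β and at 3.71 and 4.85 FPKM without. All 4 TGF-β-treated libraries were below all 4 untreated ones, as for 10.2% of all genes, the reverse of CCN1, CCN2 and ANKRD1. VGLL1 fell by 0.98 ± 0.19 in SOX4-shRNA cells (limma adjusted p = 0.0233), to 0.429 times by the ratio of the means. The difference in scrambled-shRNA cells was -0.49 ± 0.19 (limma adjusted p = 0.171). The fall in SOX4-shRNA cells was lost without the first untreated SOX4-shRNA library (limma adjusted p = 0.0877) and without either TGF-β-treated SOX4-shRNA library (limma adjusted p = 0.0856 and 0.0593). It was also lost with no filter on low values (0.0724), with all kept genes in the fit (0.0972) and with the SOX4-shRNA libraries fitted alone (0.0653).

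VGLL3 is encoded on chromosome 3 (86925538 to 87040299, minus strand). It was at 8.19 and 6.39 FPKM in TGF-β-treated SOX4-shRNA cells and at 3.83 and 5.01 FPKM in untreated SOX4-shRNA cells. The scrambled-shRNA cells had 4.31 and 4.70 FPKM with TGF-β and at 1.89 and 2.60 FPKM without. Treated libraries lay above untreated ones within each kind of cell, and the TGF-β-treated scrambled-shRNA libraries were at the level of the untreated SOX4-shRNA ones. The rise was 0.77 ± 0.17 in scrambled-shRNA cells (limma adjusted p = 0.0407), and the difference in SOX4-shRNA cells was 0.61 ± 0.17 (limma adjusted p = 0.0762). The rise was lost without any 1 of the 4 scrambled-shRNA libraries (limma adjusted p = 0.0894 to 0.253) and with 5 FPKM added before the logarithm in place of 1 (0.0576).

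**Figure D2:**
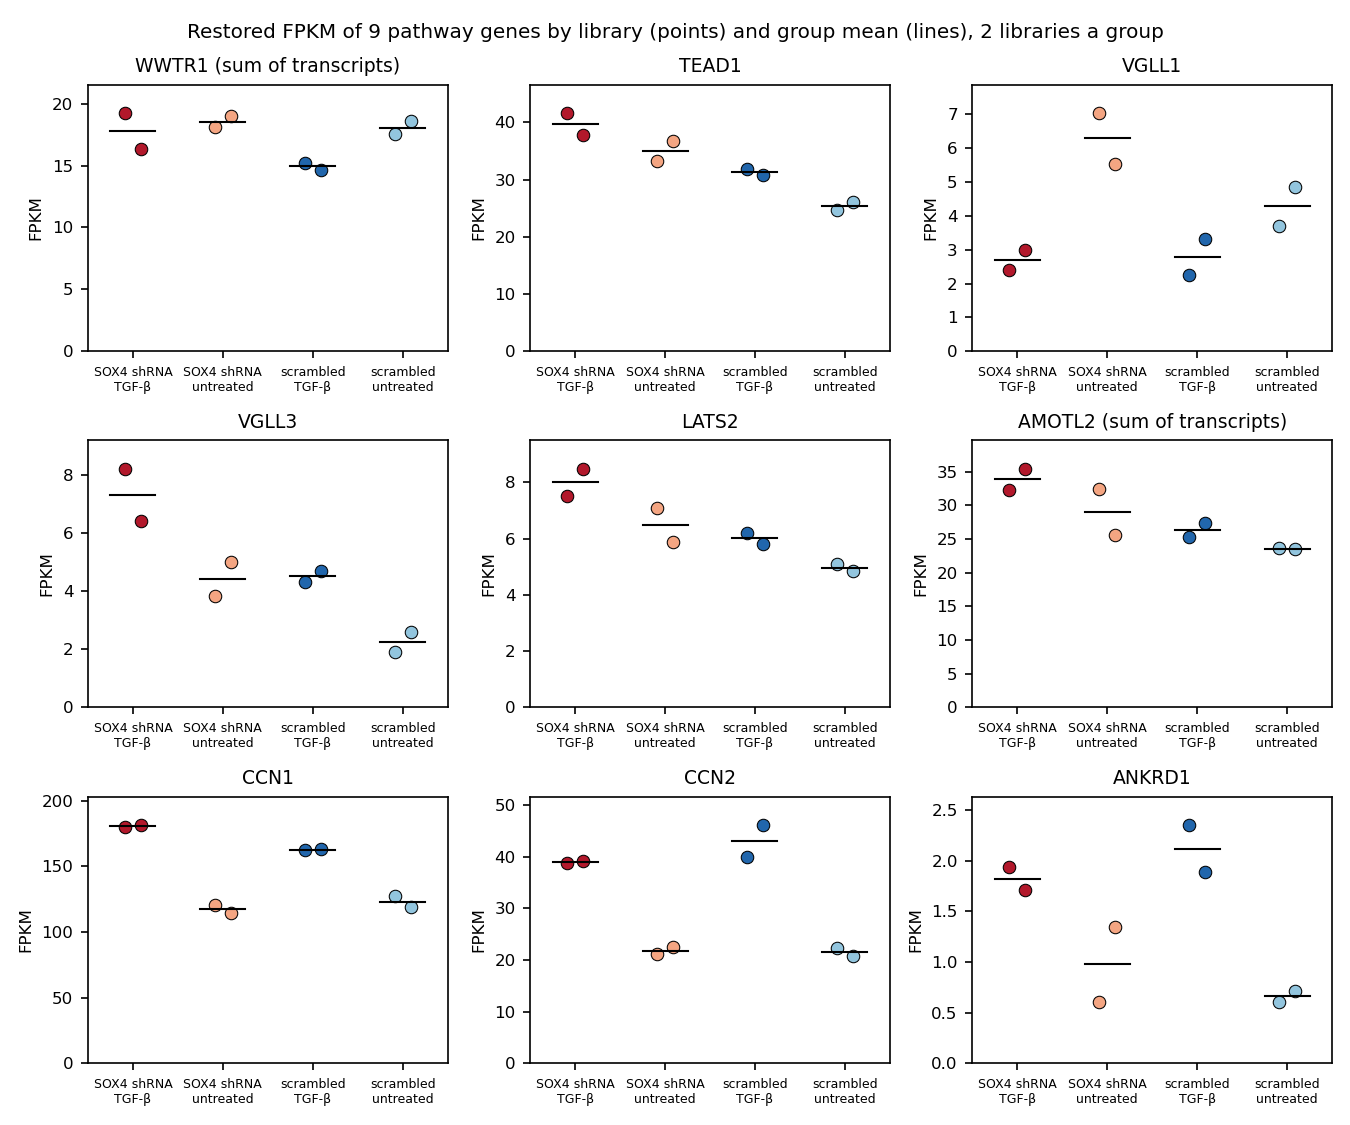
FPKM of 9 genes in each library (points, 2 a group) with the mean of each group (lines), on linear axes from 0 that differ between panels. CCN1, CCN2 and ANKRD1 are higher and VGLL1 is lower in all 4 TGF-β-treated libraries than in all 4 untreated ones, and TEAD1 is higher in all 4 SOX4-shRNA libraries than in all 4 scrambled-shRNA ones.

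Counted together, 2 of the 7 tested genes rose with TGF-β in SOX4-shRNA cells, against 5.64% of all 5393 genes, and 1 fell, against 2.02%. In scrambled-shRNA cells 4 of the 7 rose, against 4.91% of all genes, and none fell, against 2.15%. Without ANKRD1, for the reason given above, 3 of 6 rose in scrambled-shRNA cells. The genes were chosen with earlier results of these data known, so counts set against the shares of all genes are a description only. Of the 7 genes, 6 had both TGF-β-treated libraries above both untreated ones in SOX4-shRNA cells, as did 20.1% of all genes, and VGLL1 had both below, as did 24.1%. The same 6 genes lay above in scrambled-shRNA cells, as did 28.9% of all genes, and VGLL1 lay below, as did 34.1%. No gene of the 7 was called in SOX4-shRNA cells when those 4 libraries were fitted alone. In scrambled-shRNA cells CCN2 alone was called with no filter on low values, with all kept genes in the fit, or without the first TGF-β-treated or either untreated scrambled-shRNA library, and none without the second TGF-β-treated one.

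Whether SOX4 shRNA altered the response was tested as the difference between the TGF-β effects, SOX4-shRNA minus scrambled-shRNA cells. None of the 7 genes passed with limma, against 0.0371% of all genes. None had an unadjusted limma p under 0.05, against 162 of all 5393 genes. At these shares neither count is a result about the 7 genes. The difference was 0.21 ± 0.13 (log2 ± SE) for CCN1, -0.15 ± 0.16 for CCN2, -0.37 ± 0.28 for ANKRD1, -0.49 ± 0.27 for VGLL1 and -0.16 ± 0.25 for VGLL3. The calls made in only 1 kind of cell, for ANKRD1, VGLL1 and VGLL3, are therefore not shown to differ between the kinds of cell.

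**Figure D3:**
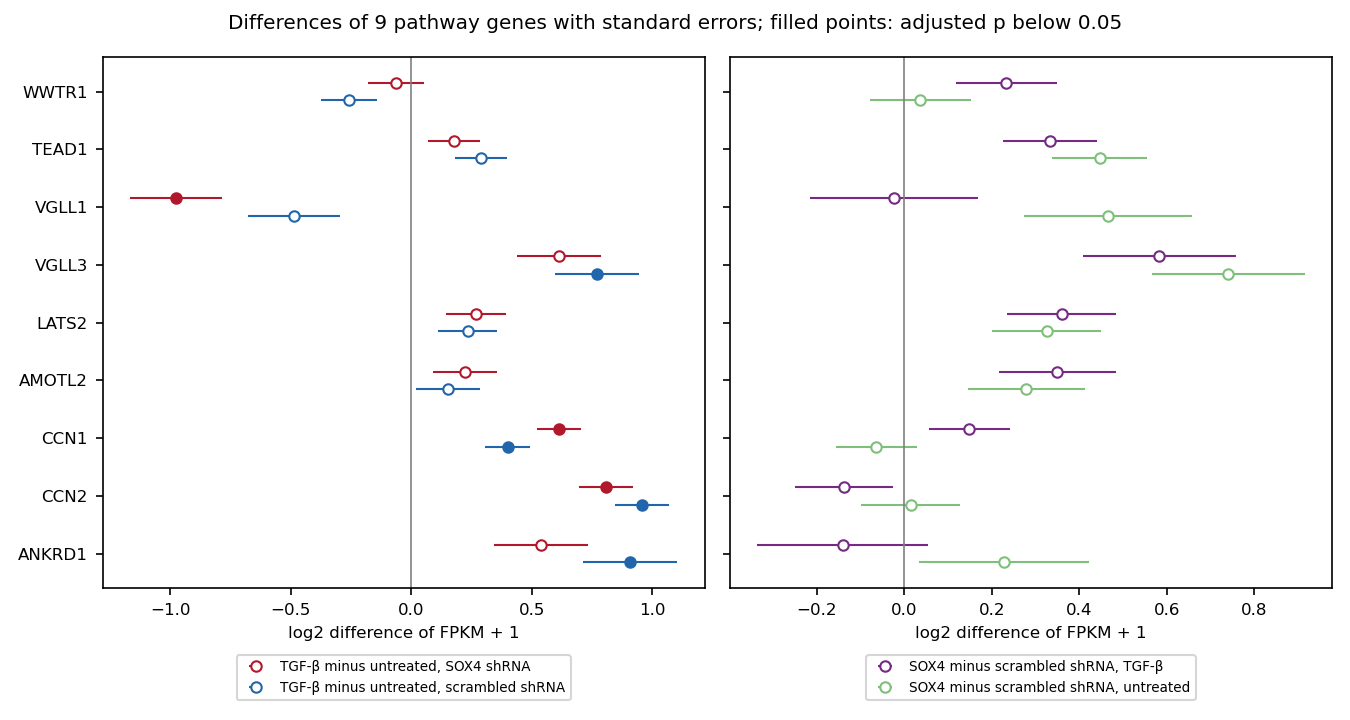
Log2 differences of FPKM + 1 for 9 genes, with bars of 1 SE. The left panel gives TGF-β minus untreated in SOX4-shRNA (red) and scrambled-shRNA cells (blue), the right panel SOX4 minus scrambled shRNA with TGF-β (purple) and without (green). Filled points have a limma adjusted p under 0.05. CCN1 and CCN2 are filled in both TGF-β comparisons, and no point is filled in the right panel.

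The knockdown was then compared with the scrambled shRNA, with and without TGF-β. These comparisons share libraries with those of TGF-β. None of the 7 genes passed the limma test in either, against 3.73% of all genes in TGF-β-treated and 4.15% in untreated cells. At an unadjusted p under 0.05 stood 3 of the 7 in TGF-β-treated cells, against 16.6% of all genes, and 4 of the 7 in untreated cells, against 18.8%. These were TEAD1, LATS2 and VGLL3 in both, with VGLL1 in untreated cells, and all were higher in SOX4-shRNA cells. In TGF-β-treated cells both SOX4-shRNA libraries lay above both scrambled-shRNA ones for 4 of the 7 genes, against 23.1% of all genes. In untreated cells this was so for 4, against 23.3%. CCN2 had both below in TGF-β-treated cells, a direction for which no share of all genes was computed.

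TEAD1, one of the TEAD factors through which YAP and TAZ reach DNA, is encoded on chromosome 11 (12695968 to 12966284, plus strand). It was at 41.6 and 37.8 FPKM in TGF-β-treated SOX4-shRNA cells and at 31.8 and 30.8 FPKM in TGF-β-treated scrambled-shRNA cells. Without TGF-β it was at 33.3 and 36.8 FPKM in SOX4-shRNA cells and at 24.7 and 26.2 FPKM in scrambled-shRNA cells. All 4 SOX4-shRNA libraries were above all 4 scrambled-shRNA ones, which was so for 4.99% of all genes and for no other of the 9 genes here. The difference was 0.33 ± 0.11 with TGF-β (limma adjusted p = 0.173) and 0.45 ± 0.11 without (limma adjusted p = 0.0658), so neither passed. TGF-β itself gave TEAD1 a difference of 0.18 ± 0.11 in SOX4-shRNA cells and 0.29 ± 0.11 in scrambled-shRNA cells, which did not pass either (limma adjusted p = 0.374 and 0.152).

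VGLL3 differed by 0.58 ± 0.17 between SOX4-shRNA and scrambled-shRNA cells with TGF-β (limma adjusted p = 0.144) and by 0.74 ± 0.17 without (limma adjusted p = 0.0609), or 1.62 and 1.97 times by the ratio of the means. VGLL1 differed by -0.02 ± 0.19 with TGF-β and by 0.47 ± 0.19 without (limma adjusted p = 0.977 and 0.244). The 3 targets did not pass either. CCN2 differed by -0.14 ± 0.11 with TGF-β and 0.01 ± 0.11 without, CCN1 by 0.15 ± 0.09 and -0.06 ± 0.09, and ANKRD1 by -0.14 ± 0.20 and 0.23 ± 0.20, with limma adjusted p-values of 0.500 to 0.959.

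LATS2, a kinase that phosphorylates YAP and TAZ and is itself induced by them, is encoded on chromosome 13 (21547175 to 21635725, minus strand). It was at 7.53 and 8.47 FPKM in TGF-β-treated SOX4-shRNA cells and at 6.21 and 5.81 FPKM in TGF-β-treated scrambled-shRNA cells. Without TGF-β it was at 7.09 and 5.89 FPKM in SOX4-shRNA cells and at 5.09 and 4.83 FPKM in scrambled-shRNA cells. SOX4-shRNA libraries lay above scrambled-shRNA ones within each treatment, by 0.36 ± 0.12 with TGF-β and 0.32 ± 0.12 without, and neither difference passed (limma adjusted p = 0.194 and 0.213). The TGF-β differences were 0.27 ± 0.12 in SOX4-shRNA cells and 0.23 ± 0.12 in scrambled-shRNA cells (limma adjusted p = 0.243 and 0.302).

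WWTR1 and AMOTL2 have 3 transcripts each in the table, among which the authors' software had divided the reads, so the marks were restored from the sum of the transcripts. WWTR1, the gene of the coactivator TAZ, is encoded on chromosome 3 (149235022 to 149454501, minus strand). The sum was 19.2 and 16.3 FPKM in TGF-β-treated SOX4-shRNA cells and 18.1 and 18.99 FPKM in untreated SOX4-shRNA cells. In scrambled-shRNA cells it was 15.2 and 14.7 FPKM with TGF-β and 17.5 and 18.6 FPKM without. The 2 TGF-β-treated scrambled-shRNA libraries were the lowest of the 8, and the other groups overlapped. The TGF-β difference was -0.06 ± 0.12 in SOX4-shRNA cells and -0.26 ± 0.12 in scrambled-shRNA cells (limma adjusted p = 0.799 and 0.218), and the knockdown difference was 0.23 ± 0.12 with TGF-β and 0.04 ± 0.12 without (limma adjusted p = 0.375 and 0.893). A second reading was also whole in 2 libraries, 1630 FPKM in the second TGF-β-treated SOX4-shRNA library and 58.0 FPKM in the first untreated scrambled-shRNA library, and the reading nearest the other libraries was kept. WWTR1 shares 756 exon bases with WWTR1-AS1 on the opposite strand.

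As restored, the sum of WWTR1 was steadier than its parts. This is partly built in, since the reading nearest the other libraries was kept where another was also whole. The transcript NM_001168280 took 25.7% to 84.6% of the sum, NM_015472 took 15.4% to 74.3%, and NM_001168278 never exceeded 0.00630%. The 25.7% and 74.3% are from the first untreated scrambled-shRNA library, where another reading was also whole. Libraries of the same group differed in this split, as in the untreated SOX4-shRNA cells, where NM_015472 was at 8.53 and 2.92 FPKM, and the untreated scrambled-shRNA cells, where it was at 13.0 and 6.99 FPKM. None of the transcripts of WWTR1 and AMOTL2 that could be tested passed in any comparison. At the shares of all genes called given above, this is no result about these transcripts.

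AMOTL2, an angiomotin-like junction protein that binds YAP and promotes its phosphorylation, is encoded on chromosome 3 (134074189 to 134094321, minus strand). Its sum was 32.3 and 35.4 FPKM in TGF-β-treated SOX4-shRNA cells and 25.2 and 27.4 FPKM in TGF-β-treated scrambled-shRNA cells. Without TGF-β it was 32.4 and 25.6 FPKM in SOX4-shRNA cells and 23.7 and 23.5 FPKM in scrambled-shRNA cells. SOX4-shRNA libraries lay above scrambled-shRNA ones within each treatment, by 0.35 ± 0.13 with TGF-β and 0.28 ± 0.13 without, and neither passed (limma adjusted p = 0.237 and 0.316). The TGF-β differences were 0.22 ± 0.13 in SOX4-shRNA cells and 0.15 ± 0.13 in scrambled-shRNA cells (limma adjusted p = 0.361 and 0.531). The main transcript of AMOTL2 was first set to the readings at which its libraries lay closest together, which favours small differences. Sets of readings 10-fold apart are equally close, and the highest was taken before whole reads were checked. The level of AMOTL2 thus rests partly on this choice. The restoration of AMOTL2 was less decisive than that of WWTR1. Its best set of lengths left a summed distance from whole reads of 0.0153 reads against 0.0186 for the next, while those of WWTR1 were 0.00822 and 0.0316, and the second untreated scrambled-shRNA library of AMOTL2 had another whole reading of 2.9999 FPKM. AMOTL2 shares 187 exon bases with the pseudogene RPL39P5 on the same strand.

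**Figure D4:**
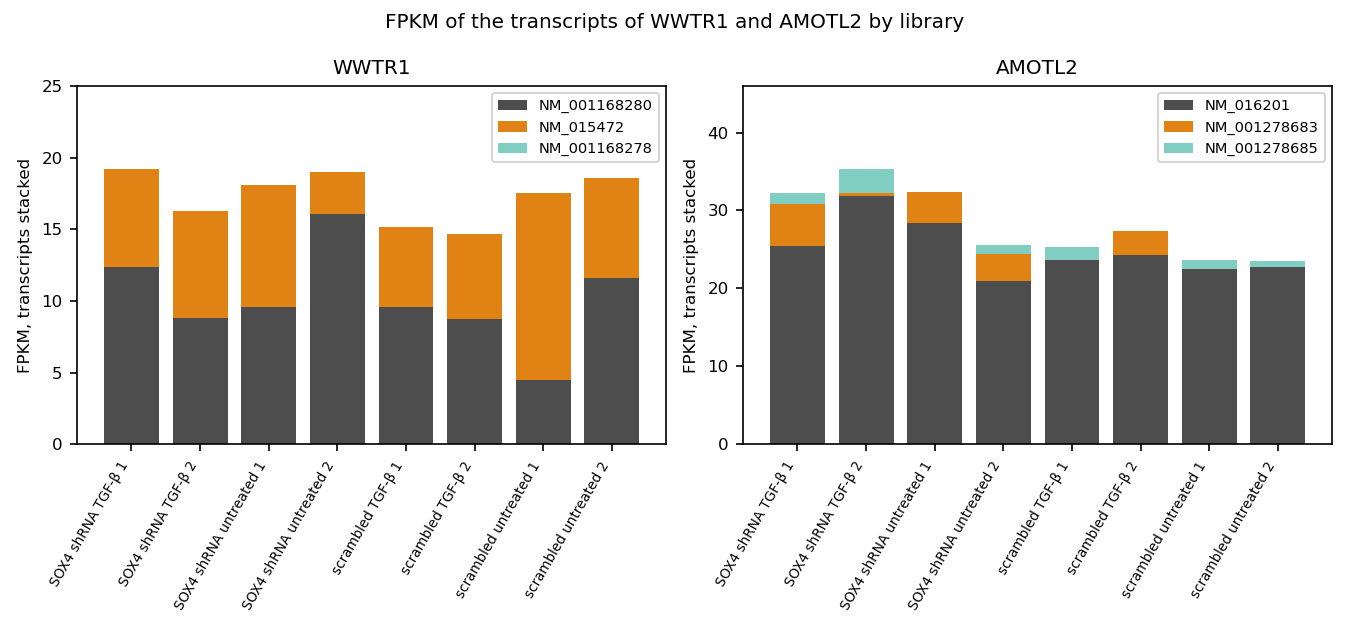
FPKM of the transcripts of WWTR1 (left) and AMOTL2 (right) in each library, stacked so that the height of a bar is the sum for the gene. The sum of WWTR1 stays between 14.7 and 19.2 FPKM while NM_001168280 takes between 25.7% and 84.6% of it. Where another reading was also whole, the one nearest the other libraries is shown.

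YAP1, the founding coactivator, is encoded on chromosome 11 (101981178 to 102104155, plus strand) and has 9 transcripts in the table. No value was settled for it. In 54 of its 72 cells the decimal mark was lost with more than 1 possible reading, and restoration from whole summed reads is not reported for it. The transcripts NM_001130145 and NM_001282097 were intact in all libraries and did not exceed 0.0238 and 0.0188 FPKM. The sum of the 9 was at least 23.9 and 30.9 FPKM in TGF-β-treated SOX4-shRNA cells, 27.6 and 23.3 FPKM in untreated SOX4-shRNA cells, 19.03 and 24.6 FPKM in TGF-β-treated scrambled-shRNA cells, and in untreated scrambled-shRNA cells 28.4 and 18.7 FPKM. These are lower bounds with every cell at its smallest reading, and the largest readings sum to between 1653 and 2920 FPKM. No comparison was made for YAP1.

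Other genes of the pathway were taken from 4 lists of 42 genes, of which 19 could be tested, 13 with 1 transcript and 6 as the sum of 2. The lists too were chosen with earlier results of these data known. Of 16 further genes of a YAP and TEAD target signature, 9 were tested, and 2 of them, IGFBP3 and CCDC80, rose with TGF-β in both kinds of cell, against 5.64% of all genes in SOX4-shRNA and 4.91% in scrambled-shRNA cells. The median over the 9 was 0.16 in SOX4-shRNA cells and 0.20 in scrambled-shRNA cells, against -0.04 and -0.03 over all genes. IGFBP3, a secreted binding protein of insulin-like growth factors, was at 5.55 and 5.06 FPKM in TGF-β-treated SOX4-shRNA cells and at 2.45 and 2.43 FPKM in untreated SOX4-shRNA cells. In scrambled-shRNA cells it was at 12.9 and 13.6 FPKM with TGF-β and at 6.47 and 7.75 FPKM without. SOX4-shRNA libraries were thus below scrambled-shRNA ones at each treatment, and treated above untreated in each kind of cell. The knockdown difference was -1.18 ± 0.12 with TGF-β and -1.23 ± 0.12 without (limma adjusted p = 0.00252 and 0.00177), and the TGF-β difference 0.87 ± 0.12 in SOX4-shRNA and 0.82 ± 0.12 in scrambled-shRNA cells (limma adjusted p = 0.00526 and 0.00959). With the SOX4-shRNA libraries fitted alone, the TGF-β rise of IGFBP3 there had a limma adjusted p of 0.0508. Of the 28 tested genes, the 9 of the main set and these 19, IGFBP3 passed in both knockdown comparisons and no other passed in either, so that 1 of 28 was near the 3.73% of all genes called in TGF-β-treated and the 4.15% called in untreated cells.

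The target NT5E, a cell-surface enzyme that makes adenosine, stayed outside the 19 because the marks of its 2 transcripts were restored less decisively, with a lead of 4.68 over the next pair of lengths on a natural log score where 5 was asked. It is described after its values were seen. Its most likely sum was 132 and 115 FPKM in TGF-β-treated SOX4-shRNA cells and 62.4 and 70.4 FPKM in untreated SOX4-shRNA cells. In scrambled-shRNA cells it was 177 and 165 FPKM with TGF-β and 102 and 122 FPKM without. Added to the fit with these values, NT5E was lower in SOX4-shRNA than in scrambled-shRNA cells, by -0.74 ± 0.13 in untreated cells (limma adjusted p = 0.0230) and by -0.47 ± 0.13 with TGF-β, which did not pass (limma adjusted p = 0.117). Its TGF-β difference was 0.89 ± 0.13 in SOX4-shRNA cells and 0.62 ± 0.13 in scrambled-shRNA cells (limma adjusted p = 0.00681 and 0.0312). With NT5E, 2 list genes in place of 1 passed for the knockdown in untreated cells, and 3 in place of 2 in each TGF-β comparison.

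CCDC80, a secreted matrix-associated protein, was at 16.3 and 14.3 FPKM in TGF-β-treated SOX4-shRNA cells and at 5.78 and 6.40 FPKM in untreated SOX4-shRNA cells. In scrambled-shRNA cells it was at 16.1 and 15.4 FPKM with TGF-β and at 5.94 and 7.30 FPKM without. Treated libraries were above untreated ones in both kinds of cell, by 1.20 ± 0.13 in SOX4-shRNA and 1.14 ± 0.13 in scrambled-shRNA cells (limma adjusted p = 0.00191 and 0.00439). In scrambled-shRNA cells the rise of CCDC80 was lost without either TGF-β-treated library (limma adjusted p = 0.0726 and 0.0629), and that of IGFBP3 without either of these or the first untreated one (limma adjusted p = 0.0898 to 0.120). The knockdown difference of IGFBP3 with TGF-β had a limma adjusted p of 0.0522 without the second TGF-β-treated scrambled-shRNA library. Among the other 7 targets, the kinase gene NUAK2 and DOCK5 had TGF-β differences of 0.54 ± 0.16 and 0.37 ± 0.11 in SOX4-shRNA cells and 0.59 ± 0.16 and 0.47 ± 0.11 in scrambled-shRNA cells, which did not pass (limma adjusted p = 0.0517 to 0.0964). FJX1 had the lowest TGF-β differences of the 9, -0.39 ± 0.25 in SOX4-shRNA and -0.53 ± 0.25 in scrambled-shRNA cells (limma adjusted p = 0.399 and 0.251). With the scrambled-shRNA libraries fitted alone, NUAK2, DOCK5 and FJX1 passed there (limma adjusted p = 0.0272, 0.0189 and 0.0367).

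Of 15 Hippo kinases and scaffolds, 6 were tested (STK4, SAV1, MOB1A, WWC2, TAOK1 and TAOK3) and none passed in any comparison, which is no result about these 6 genes at the shares of all genes called given above. Their TGF-β differences lay between -0.23 and 0.24 in SOX4-shRNA cells and between -0.14 and 0.37 in scrambled-shRNA cells, and their knockdown differences between -0.08 and 0.25 with TGF-β and between 0.02 and 0.25 without. At an unadjusted p under 0.05 stood none of the 6 in any of these comparisons, against 23.6% of all genes with TGF-β in SOX4-shRNA and 24.3% in scrambled-shRNA cells, and 16.6% for the knockdown with TGF-β and 18.8% without. Of 5 further TEAD factors and cofactors TEAD3 was tested, with TGF-β differences of 0.53 ± 0.17 in SOX4-shRNA cells and 0.34 ± 0.17 in scrambled-shRNA cells (limma adjusted p = 0.102 and 0.266). Of 6 proteins that bind YAP or LATS, 3 were tested (AMOTL1, PTPN14 and LIMD1). None passed, which is no result about these 3 genes at the shares of all genes called given above. PTPN14 was higher in SOX4-shRNA libraries at each treatment, by 0.14 ± 0.12 with TGF-β and 0.36 ± 0.12 without (limma adjusted p = 0.642 and 0.151). The LIMD1 libraries overlapped in both knockdown comparisons. AMOTL1, the relative of AMOTL2, was lower in SOX4-shRNA libraries at each treatment, by -0.30 ± 0.10 with TGF-β and -0.18 ± 0.10 without (limma adjusted p = 0.193 and 0.388).

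**Figure D5:**
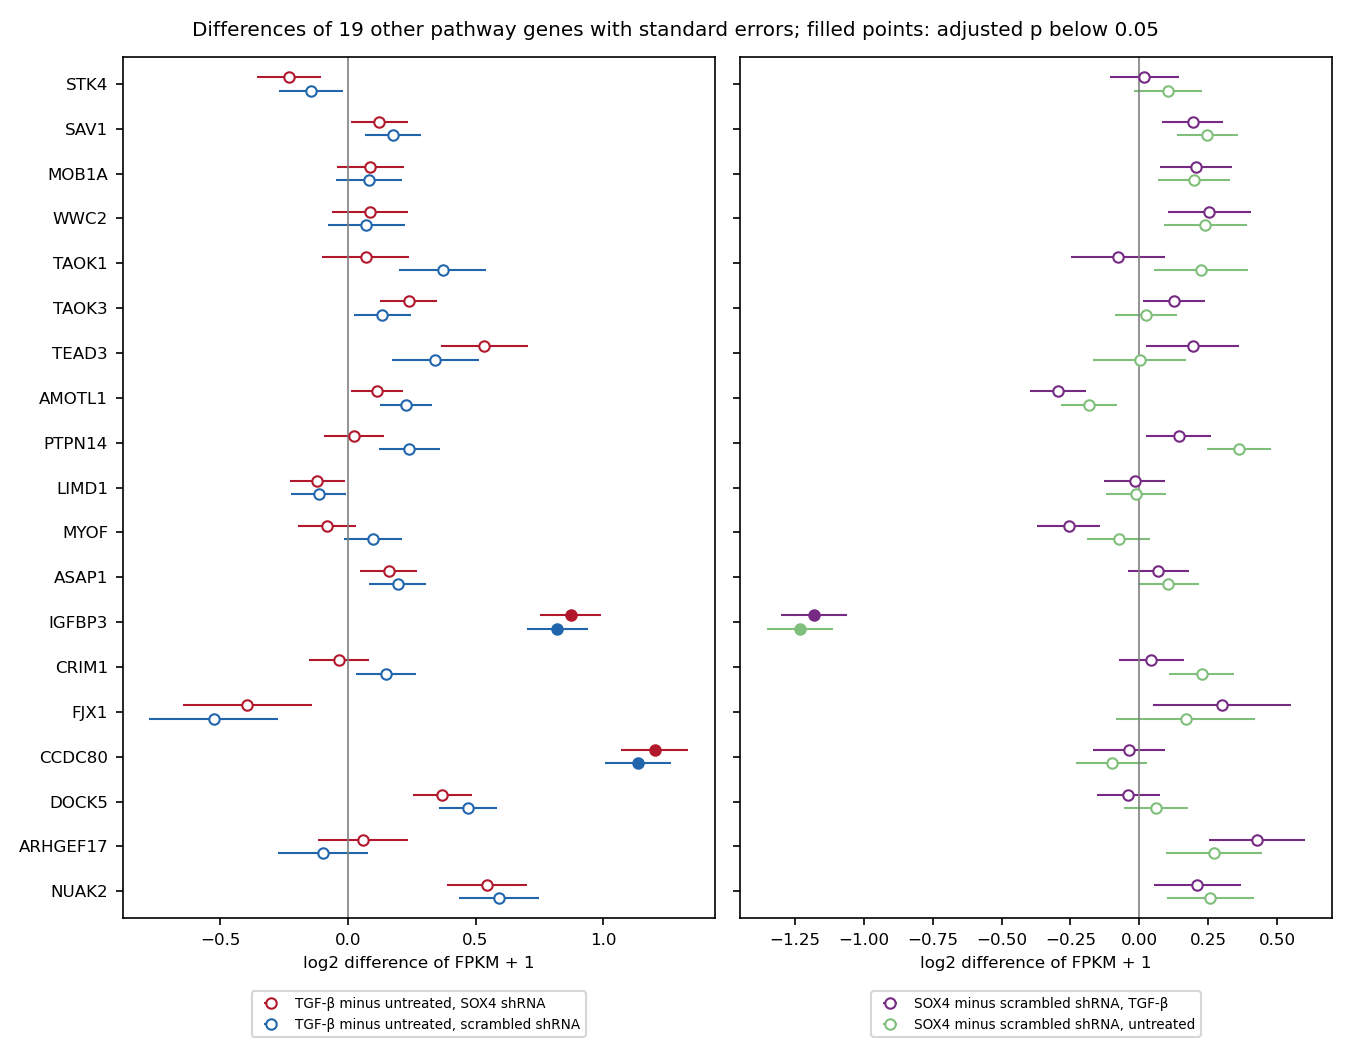
Log2 differences of FPKM + 1 for 19 further genes of the pathway, with bars of 1 SE, for TGF-β minus untreated (left) and SOX4 minus scrambled shRNA (right). Kinases and scaffolds are at the top and targets at the bottom, and filled points have a limma adjusted p under 0.05. IGFBP3 is filled in all 4 comparisons, CCDC80 in both TGF-β comparisons.

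The genes most like CCN2 and VGLL1 over the 8 libraries were named by Pearson's r of log2(FPKM + 1) among the other 5392 genes, as a description. They were SNX9 (0.991), PPIB (0.989) and ZNF8 (0.979) for CCN2, and LINS1 (0.960), TMEM30B (0.951) and LOC103344931 (0.947) for VGLL1. The 8 points fall into treated and untreated libraries and share the scaling of each library.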

How the data were processed

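Per the labels' protocols, RNA of the 8 HMLE samples was sequenced as 75-nt single reads from stranded libraries depleted of ribosomal RNA, although the molecule is labelled polyA RNA. The submitters' processing notes name hg19, Cuffdiff, Cufflinks 2.2.1 and TopHat2 2.0.9. The deposited table holds 48175 transcripts in 8 columns, taken as FPKM from these tools and the values, and every column was used. The scaling between libraries is not given in the sources used here.

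In 34.1% of deposited cells the decimal mark was lost, leaving up to 3 readings that differ by factors of 10. Another 13.9%, in exponent notation, were set to 0. Marks were restored from whole reads: for a gene with 1 transcript, each FPKM is whole reads multiplied by a factor that depends on the library and the transcript length. Readings were kept where at least 6 of 8 cells were whole within 0.003 reads plus rounding, and where they held at least 0.95 of the posterior under priors that favour small differences between libraries, so a change near 10-fold could be misread. Of 5908 genes with 1 transcript, 5442 gave whole reads and 5393 were tested, against 0 of 591 with random last digits. Summed transcripts of WWTR1, AMOTL2 and 6 list genes were restored from whole summed reads and added to the fit (5401 features). For AMOTL2 the main transcript was first set to the readings at which the libraries lay closest together. Of equally close sets the highest was taken. No least posterior was asked for the sums of WWTR1 and AMOTL2. For the list genes all 8 sums had to be whole within 0.006 reads plus rounding, and the best pair of lengths had to lead the next by 5 on a natural log score, which NT5E and F3 missed. The code for genes with 1 transcript was run on simulated data, with TGF-β changes of at most 1 log2 unit. Summed transcripts, knockdown effects and changes near 10-fold were not simulated.

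log2(FPKM + 1) was tested with limma 3.58.1 in R 4.3.3 (intensity trend, 4 groups by titles, 4 residual degrees of freedom), after a filter of at least 1 FPKM in at least 2 libraries. The libraries of a group differed beyond counting noise (chi-square per gene 3.68 to 22.4). The 10 genes and the lists were chosen with earlier results of these data known. Named were the 10 genes, SOX4, TGFBI, up to 4 called genes a list with other list genes given by range or as nearest to the threshold, and the 3 genes most like CCN2 and VGLL1. Alternatives were 2 pseudocounts, 2 filters, 2 scalings, no intensity trend, the compared groups alone, a replicate block, all kept genes, other readings and leaving out each library. Symbols were matched for 97.76% of transcripts, and positions are from GENCODE 44 lifted to hg19.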

Additional observations from a re-analysis of the deposited data

How the results depend on the processing

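Of 2695 values of single genes recomputed under another setting, none of those called changed direction, 2606 stayed on their side of the threshold, 62 no longer passed and 27 newly passed. Of the 7 genes, 4 were called with TGF-β in scrambled-shRNA cells, against 1 with no filter on low values, 1 with all kept genes in the fit and 1 with the replicate block, and 0 to 4 when each library was left out. With TGF-β in SOX4-shRNA cells 3 were called, against 0 with the compared groups alone, and 2 to 3 when each library was left out. The knockdown comparisons and the interaction had 0 called under each alternative except the crossed block given below. No transcript or sum of WWTR1 and AMOTL2 was called, also not with their other whole readings. Many of the 2695 values did not pass at first and so could not be lost. Of 11 settings that left out no library, 6 kept the call of CCN1 in scrambled-shRNA cells and 11 that of CCN2.

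The deviations of same-numbered libraries correlated at 0.394 between the untreated and 0.269 between the TGF-β-treated groups, but between -0.499 and -0.144 in the 4 pairs of a treated and an untreated group, so the numbers as given did not pair the libraries across all groups. With the numbers crossed between treated and untreated cells, an alternative chosen after seeing the data, 5 were called in each TGF-β comparison and 2 in each knockdown comparison. Over all 5393 genes, the replicate block left 163 calls of 381 with TGF-β in scrambled-shRNA cells, 234 of 413 in SOX4-shRNA cells, 122 of 224 for the knockdown in untreated and 94 of 201 in TGF-β-treated cells, and 1 of 2 for the interaction. The sums of list genes, and the fit with NT5E, were added after seeing the data. Depth limited ANKRD1 and VGLL1, with at most 62 and 99 reads a library, and the lost marks limited YAP1.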
